A study of Arabidopsis thaliana with 72 samples.

Results

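Isolated leaf mesophyll was compared with the whole leaf in seedlings of Arabidopsis thaliana kept in long days. The comparison takes in 24 of the 72 arrays of the series, all those whose titles name long days together with either mesophyll or whole leaf, 12 of each. The plants were wild type Col-0 seedlings, grown on Murashige and Skoog medium containing 0.5% sucrose, under 16 h of light and 8 h of dark, and no mutant or transgene is involved. Each tissue was collected at 6 Zeitgeber times (ZT, counted in hours from dawn), every 4 h from 0 to 20, at day 9 and again at day 10, with 1 array for each tissue, time and day. The remaining arrays hold the vasculature in long days and all 3 tissues in short days (8 h of light and 16 h of dark), and only the levels needed beside a result are taken from them. The labels describe the whole leaf samples as whole cotyledons. Mesophyll and vasculature were freed with enzymes and sonication in a brief procedure at each time, per the labels, a treatment that is not described for the whole leaf. The isolation procedure and the tissue therefore cannot be told apart in any difference given here.

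The mesophyll is the photosynthetic ground tissue that fills a leaf between its epidermal layers and surrounds the veins. It holds most of the chloroplasts, fixes carbon and loads sugars toward the phloem, while the epidermis carries the stomata with their guard cells and the veins carry xylem and phloem. Enzymatic release of leaf cells is known to turn on wound and defence genes quickly, among them zinc finger, AP2/ERF and WRKY transcription factors, calmodulin-like proteins and ubiquitin ligases of the U-box family. In RNA of whole tissues, fewer cells of a type and less RNA per cell cannot be told apart.

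Levels are log2(intensity + 1) of the deposited values, and a difference is the mesophyll minus the whole leaf, averaged over the 6 times. Probe sets above the low-intensity filter numbered 21827 of 28583, of which 12140 carried 1 gene in the annotation. The first principal component of the 24 arrays held 56.5% of the variance, with every whole leaf array below 0 and every mesophyll array above 0. One array stood apart, the whole leaf of day 10 at ZT0 (replicate 7), with a mean intensity of 54.2 against 67.8 or more in the other arrays and a correlation of 0.969 with its day 9 counterpart. Correlations between the days at the same time lay between 0.988 and 0.99 in the mesophyll. The arrays of a tissue at the same time came from day 9 and day 10, so p-values measure the spread between these days. That spread mixes plant age with differences between arrays, which may be technical. No label says that the arrays came from separately grown plants.

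A probe set was called when limma gave an adjusted p below 0.05 and the difference was at least 1 on the log2 scale. By that rule 1260 probe sets rose in the mesophyll, 5.77% of those tested, and 1192 fell, 5.46%. Of the calls, 51.4% were rises, and this share became 62.3% when each array was centred on its median and 56.3% after quantile normalization. Centring added 0.17 to the median difference over all probe sets, which was -0.08 as deposited, so that uncalled differences between -0.17 and 0 turn sign under it. The rises were larger than the falls: their median was 2.08 against -1.4, and 221 rises but only 60 falls reached 16-fold. The 12 mesophyll arrays lay wholly above the 12 whole leaf arrays in 1086 probe sets, 4.98% of those tested, and wholly below them in 1106, 5.07%. Among the calls, 1124 rises and 980 falls were also called on each day taken alone. In 595 of the rises the whole leaf mean, and in 618 of the falls the mesophyll mean, was below 3, near the bottom of the measured range, and the size of such a fold depends on the background correction.

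STZ, a zinc finger repressor of the stress response also named ZAT10, had the largest rise among the probe sets with 1 gene. Its level was lowest at 10.68, with a median of 11 and a highest value of 11.3 in the mesophyll, and ran from 2.03 over a median of 2.49 to 3.59 in the whole leaf. No whole leaf array came near a mesophyll array, and the difference was 8.44 ± 0.10 (SE, n = 12 arrays per tissue; 348-fold; limma adjusted p = 1.5e-19). The isolated vasculature, which had been through enzymes and sonication too, lay in between, from 5.78 over a median of 6.86 to 8.25. AT4G29780, a locus without a symbol in the annotation, ran from 10.17 over a median of 10.31 to 10.45 in the mesophyll and from 1.62 over 1.88 to 2.84 in the whole leaf. Its groups did not overlap and its difference was 8.37 ± 0.08 (331-fold; limma adjusted p = 5.5e-21).

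Transcription factors of the AP2/ERF family were among the next. ORA47, a regulator of jasmonate synthesis, ran from 8.86 to 9.78 in the mesophyll and from 1.75 to 2.45 in the whole leaf, a rise of 7.36 ± 0.09. ABR1, named as a repressor of abscisic acid responses, rose by 7.16 ± 0.12, from a whole leaf median of 1.8 to a mesophyll median of 8.93. CML38, a calmodulin-like calcium sensor, had a whole leaf median of 1.93 and a mesophyll median of 8.81 and rose by 6.79 ± 0.11. For these 3 genes, too, the arrays of the tissues stood fully apart. AR781 rose by 7.27, and the annotated efflux carrier DTX50 (AT5G52050) by 6.93. The 5 other leaders, AT1G15010, AT2G34930, AT3G02840, AT1G19380 and AT1G61890, carry no symbol and rose by 7.85, 7.51, 7.49, 7.12 and 6.84. A call and the same sign at all 6 times were conditions for naming these 12, so neither is a finding about them. Their limma adjusted p lay between 3.7e-22 and 3.0e-16.

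The vasculature did not share these levels gene by gene. Its mean was 5.86 for AT4G29780 and 4.7 for ORA47, between those of the whole leaf and the mesophyll. For ABR1, CML38, AT3G02840 and AT1G61890 the vasculature means were 1.84, 2.07, 2.0 and 1.97, at the low levels of the whole leaf. These values share the whole leaf arrays and carry no test.

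**Figure D1:**
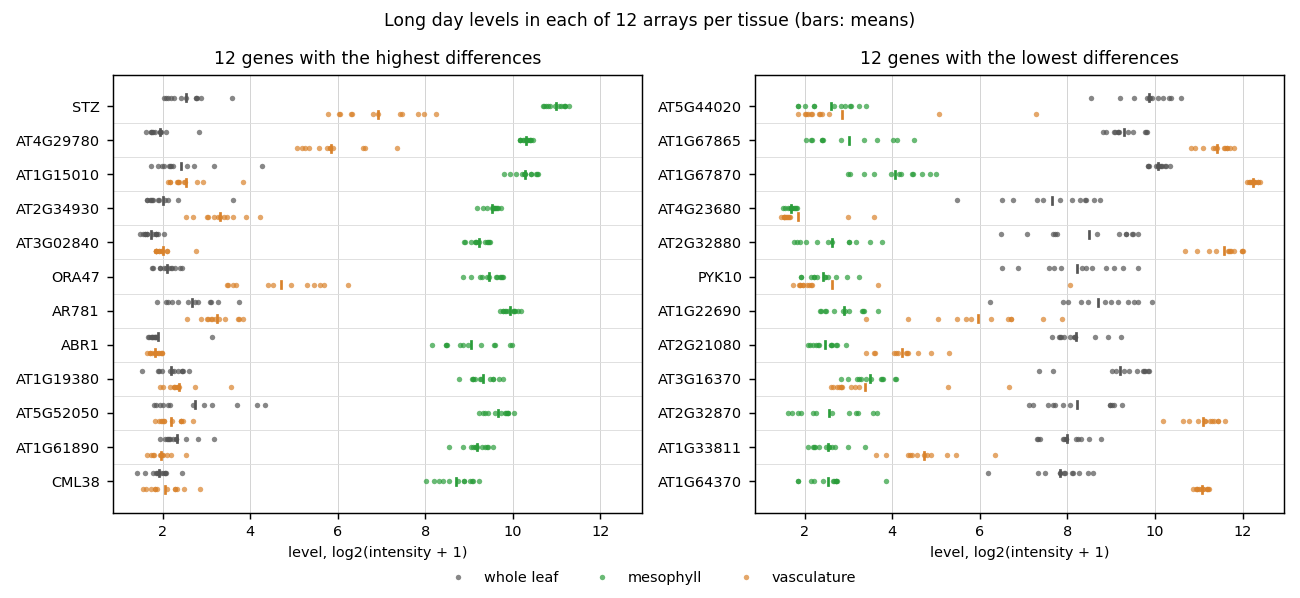
Levels, as log2(intensity + 1), of the 12 genes with the highest (left) and the 12 with the lowest (right) mesophyll minus whole leaf difference, with 1 point per long day array (12 per tissue) and bars at the means. Mesophyll arrays (green) of STZ sit at 10.68 or more while whole leaf arrays (grey) sit at 3.59 or less. Vasculature arrays (orange) lie between these tissues for some genes and at the level of either for others. They lie above both for AT1G67865, AT1G67870, AT2G32870, AT2G32880 and AT1G64370.

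The list of wound and early stress regulators had 7 members that could be tested, and 6 rose, with none falling and a median of 7.16. Over all probe sets 5.77% rose and the median was -0.08. This list, like the others, was drawn up with earlier results of these data known, so that its count is a description. Beside STZ, ORA47, AR781 and ABR1 it holds 3 related ubiquitin ligases of the U-box type, PUB22, PUB23 and PUB24, which restrain immune signalling. PUB23 rose by 5.61 ± 0.17, with 5.84 as the lowest mesophyll and 3.4 as the highest whole leaf level. PUB22 rose by 1.5 ± 0.17 with overlapping arrays, and its mesophyll levels spread from 1.95 over a median of 2.63 to 6.03. PUB24 had a difference of 0.38 and was not called. PUB19 of the same family rose by 3.43, which made 3 rises among the 8 members of the PUB family that were tested.

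Calcium signalling and WRKY genes moved the same way where they were called. CML37, a calmodulin-like protein, ran from 5.94 over a median of 6.89 to 7.86 in the mesophyll and from 1.78 over 1.91 to 2.21 in the whole leaf, and rose by 5.0 ± 0.15. Both tested members of the calcium, kinase and oxidase list rose, against 5.77% of rises over all probe sets. WRKY22, a factor downstream of immune receptor kinases, ran from 8.07 over 8.75 to 9.38 against 1.96 over 2.41 to 2.69 in the whole leaf, a rise of 6.4 ± 0.07. WRKY6, linked to senescence and defence, rose by 1.78 with overlapping arrays, whereas WRKY29 had a difference of -0.65 and was not called. OPCL1, which activates a precursor for the shortening of its chain in jasmonate synthesis, was the single tested member of the jasmonate list and rose by 4.56 ± 0.16. Of the salicylate list, the glutaredoxin GRX480 had a difference of 0.995, at the edge of the call, and SAG101 of -0.14.

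The protein folding and stress lists were mixed, and their counts are to be read beside the 5.77% of rises over all probe sets. BZIP60, a transcription factor of the unfolded protein response, ran from 7.25 over a median of 8.12 to 8.87 in the mesophyll and from 2.85 over 3.49 to 3.78 in the whole leaf, a rise of 4.62 ± 0.13 without overlap. BZIP28, a membrane-bound factor of that response, rose by 1.41 ± 0.06, also without overlap. Its relative BZIP17 was not called, with medians of 2.9 in the mesophyll and 2.81 in the whole leaf. The chaperone genes of the list had no call: BIP1 had a difference of 0.07 at levels of 2.19 or less in both tissues, ATERDJ3B of -0.60 and CRT1b of -0.40, so that 2 of 6 members rose. In the cold and dehydration list 1 of 5 rose, the dehydrin COR47 by 2.67 ± 0.12, while KIN2 stood at 0.83, KIN1 at 0.57, COR15B at 0.18 and COR15A at 0.04. The single tested heat shock member, AT1G07400, rose by 2.48, while UGT74B1 of glucosinolate synthesis and AT2G21640 of the oxidative list had differences of -0.72 and -0.16, and no camalexin gene could be tested. BZIP53, a factor of the low-energy response, rose by 1.39, and AKINBETA1, a subunit of the SnRK1 kinase, had a difference of -0.67.

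Further genes with a symbol and large rises were chosen after their values were seen. RPN12b, a regulatory subunit of the proteasome, rose by 5.0, and TET8, a tetraspanin of extracellular vesicles, by 3.45. Of 9 tested VPS genes, which sort proteins to the vacuole, 3 rose, against 5.77% of rises over all probe sets. These were VPS2.1 by 2.74, VPS60.1 by 1.68 and VPS46.2 by 1.25, while the family's median was -0.08. HEMA2, a glutamyl-tRNA reductase at the start of tetrapyrrole synthesis, rose by 5.06 from a whole leaf median of 2.79 to a mesophyll median of 7.94. The kinase PTI1-4 rose by 4.32, the coactivator KIWI by 5.15, SRC2 by 5.34 and the response regulator RR18 of cytokinin signalling by 3.49. Of 46 tested UDP-glycosyltransferases 4 rose, among them UGT73B2 by 2.28 and UGT73B1 by 2.02, and 2 fell, UGT72E1 by 2.18 and UGT85A2 by 2.16, counts near the 5.77% of rises and 5.46% of falls over all probe sets. Of 15 IQD genes, which encode calmodulin-binding proteins, IQD23 and IQD22 rose by 2.35 and 2.3 and the others were not called.

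**Figure D2:**
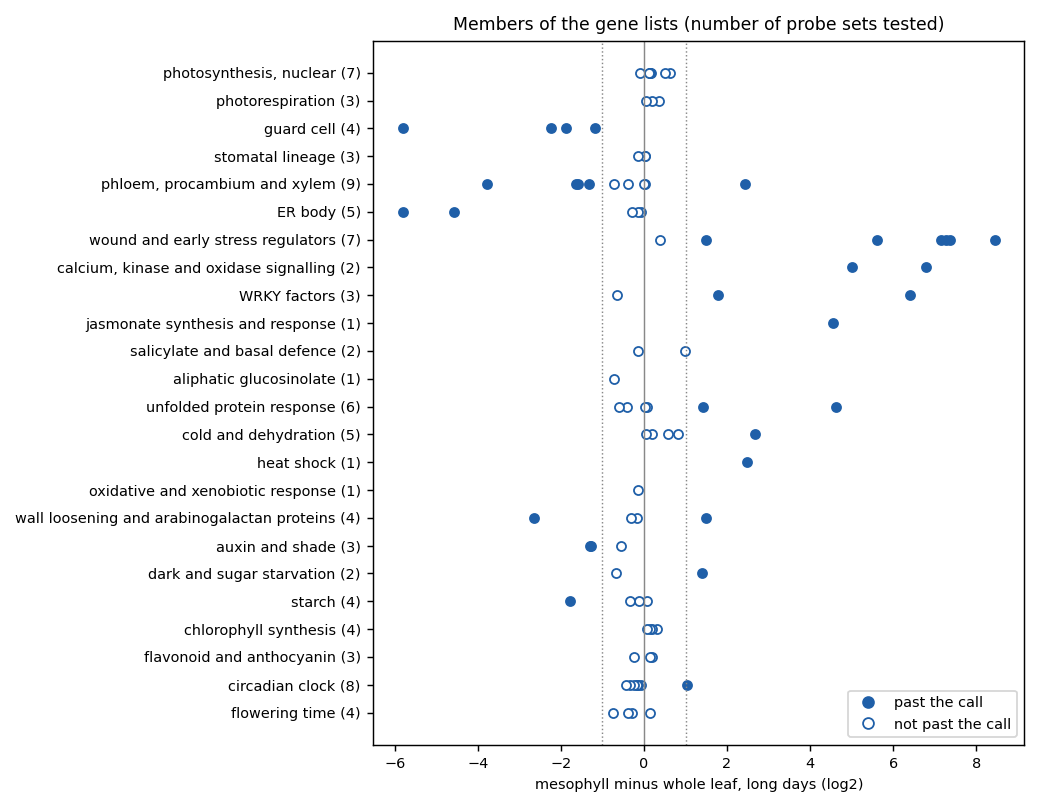
Mesophyll minus whole leaf difference (log2, averaged over 6 times) of each tested member of the gene lists, filled where called and open where not, with dotted lines at -1 and 1. All 4 guard cell members lie left of the call line, 6 of 7 wound regulators lie right of it, and all photosynthesis members lie between the lines. Over all probe sets 5.46% fell and 5.77% rose.

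At the other end, AT5G44020 had the largest fall. Its whole leaf levels ran from 8.53 over a median of 9.91 to 10.58 and its mesophyll levels from 1.84 over 2.74 to 3.4. The arrays did not overlap, and the gene fell by 7.25 ± 0.15 (152-fold; limma adjusted p = 1.4e-16). The vasculature stood low as well, at a median of 2.25, with its highest array at ZT20 of day 9 (7.27). AT1G67865 and AT1G67870 fell by 6.30 ± 0.15 and 6.01 ± 0.08, and AT2G32880 and AT2G32870 by 5.87 ± 0.20 and 5.65 ± 0.12. In the reference annotation each of these couples lies next to each other on the chromosome, and whether their probe sets pick up one another's transcript was not tested. Unlike AT5G44020, these 4 genes had vasculature means of 11.41, 12.25, 11.57 and 11.1, above those of the whole leaf.

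The other 7 of the lowest 12 were AT4G23680 (a fall of 5.96), PYK10 (5.8), AT1G22690 (5.8), AT2G21080 (5.74), AT3G16370 (5.7), AT1G33811 (5.45) and AT1G64370 (5.3). Here too, a call and the same sign at all 6 times were conditions for naming the 12. None of the 12 overlapped between the tissues, and their limma adjusted p lay between 2.3e-19 and 1.1e-11. Of these 7, AT1G64370 alone had a vasculature mean (11.06) above its whole leaf median (7.93).

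PYK10, the beta-glucosidase stored in endoplasmic reticulum bodies, ran from 6.5 over a median of 8.38 to 9.62 in the whole leaf and from 1.9 over 2.37 to 3.23 in the mesophyll. NAI2, a protein needed to form these bodies, which seedlings carry in the epidermis, ran from 3.73 over 5.89 to 7.48 against 1.22 over 1.43 to 1.73. Neither gene overlapped between the tissues, and they fell by 5.80 ± 0.27 and 4.56 ± 0.31. Of the other tested members of the list, NAI1, JAL33 and JAL22 had differences of -0.07, -0.15 and -0.29 at mesophyll levels of 2.08 or less. Thus 2 of 5 members fell, against 5.46% of falls over all probe sets. In the vasculature the median of PYK10 was 2.01, with its highest value, 8.06, in the same ZT20 array as for AT5G44020.

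Guard cell genes were low in the mesophyll: all 4 tested members of their list fell, with a median of -2.06, and none overlapped between the tissues, against 5.46% of falls over all probe sets. With a pseudocount of 4, CHX20 (-0.75) was not called, which leaves 3. FMA, the transcription factor FAMA that completes guard cell fate, ran from 3.6 over a median of 4.23 to 4.97 in the whole leaf and from 1.86 over 1.99 to 2.17 in the mesophyll, a fall of 2.24 ± 0.10. BLUS1, a kinase of blue light opening of stomata, fell by 1.88 ± 0.09 and the exchanger CHX20 by 1.18 ± 0.08. AT1G22690, which the annotation leaves without a symbol, fell by 5.8 ± 0.24, from a whole leaf median of 8.93 to a mesophyll median of 2.9. In the isolated vasculature FMA, BLUS1 and CHX20 were near their mesophyll levels, with medians of 2.27, 1.77 and 1.88. There AT1G22690 had a median of 6.03, between the mesophyll and the whole leaf. The stomatal lineage factors SPCH and MUTE were near the bottom of the range in both tissues, with no level above 2.11, and STOMAGEN, the mesophyll signal that promotes stomata, had medians of 3.18 in both and a difference of 0.02. Of the 22 loci of the epidermis and cuticle list, 1 had a probe set with a single gene in the annotation, and it did not pass the filter, so the pavement cells have no marker here.

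Members of the vein list were split, and not all of them were higher in the isolated vasculature than in the whole leaf. Of 9 tested members of the phloem, procambium and xylem list, 4 fell and 1 rose, with a median of -0.71. Over all probe sets 5.46% fell and 5.77% rose. GTR2, a glucosinolate transporter that loads the phloem, ran from 6.67 over a median of 6.98 to 7.32 in the whole leaf and from 2.57 over 3.15 to 3.81 in the mesophyll, and stood at 9.83 in the vasculature. It fell by 3.78 ± 0.15 without overlap. SWEET11, a sucrose exporter of phloem parenchyma, stayed high in the mesophyll, at 7.83 over a median of 8.71 to 9.22, against 9.79 over 10.23 to 10.72 in the whole leaf, a fall of 1.6 ± 0.10. LHW, which drives divisions in young veins, fell by 1.64, and CLE26, a small signal peptide, by 1.33. COV1, SWEET13, CLE41 and OPS had differences of -0.71, -0.39, 0.02 and 0.01. The vasculature median of COV1 was 3.12, below its whole leaf median of 3.6. GTR1, the close relative of GTR2, ran the other way: its mesophyll levels ran from 7.18 over a median of 7.44 to 8.18 and its whole leaf levels from 4.24 over 5.17 to 5.85, a rise of 2.42 ± 0.10 without overlap, beside a vasculature median of 4.92. How much of the other falls goes with these guard cell and vein genes was not tested.

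Falls in families of sugar transport, wall and vacuole genes are to be read beside the 5.46% of falls over all probe sets. Of 11 tested SWEET exporters, 4 fell (SWEET11, SWEET16 by 1.55, SWEET4 by 1.22 and SWEET1 by 1.03) and none rose. With a pseudocount of 4, SWEET4 (-0.82) and SWEET1 (-0.77) were not called, which leaves 2 of 11. Of 17 serine carboxypeptidase-like genes, 5 fell and none rose, led by scpl35 with 2.39 and scpl25 with 2.09. Of 10 alpha-expansins, which loosen the cell wall, EXPA8, EXPA9 and EXPA16 fell by 2.66, 1.68 and 1.09 and EXPA20 rose by 1.38. EXPA9 stood at a vasculature median of 8.83, against 3.69 in the whole leaf. Of 12 CLE peptide genes, CLE42, CLE26 and CLE16 fell by 1.86, 1.33 and 1.31. EXPA16 (-0.84), CLE26 (-0.92) and CLE16 (-0.95) were not called with that pseudocount either. TBL45 and TBL25, from a family that acetylates wall polysaccharides, fell by 2.4 and 1.84 (2 of 20), and CYP71B29 and CYP71B34 were the falls among 18 cytochrome P450 genes (1.55 and 1.07). The medians of these last families, -0.11 and -0.16, were close to the -0.08 of all probe sets. XTH18, a xyloglucan-modifying enzyme, rose by 1.5 with overlapping arrays. The families were grouped by symbol after earlier results were seen.

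Single genes with large falls and a symbol, again chosen after their values were seen, included ALDH3F1, an aldehyde dehydrogenase, with 4.27, BGLU33, a beta-glucosidase, with 3.57, ZW9 with 3.44, the RING finger gene BRH1 with 2.55 and the vacuolar processing enzyme GAMMA-VPE with 2.5. BGLU33 had a vasculature median of 11.12, the whole leaf 5.55 and the mesophyll 1.84. Growth regulators of the auxin and shade list fell in 2 of 3 cases, against 5.46% of falls over all probe sets. HAT2, a homeodomain factor, fell by 1.3 and PIF7, a phytochrome-interacting factor of shade growth, by 1.27, while IAA29 had a difference of -0.55. QQS, an orphan gene that affects starch content, fell by 1.77 from a whole leaf median of 7.92 to a mesophyll median of 6.02, and the enzymes SBE2.2, PWD and DPE1 of the starch list had differences of -0.33, -0.13 and 0.08.

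Genes of photosynthesis were high in both tissues and none passed the call. The list's 7 tested nuclear members had a median of 0.14. RCA, rubisco activase, had medians of 11.36 in the mesophyll and 11.47 in the whole leaf, and SBPASE of the Calvin cycle 10.8 and 10.88. The light-harvesting gene LHCB4.1 showed the largest difference of the list, 0.63 ± 0.18 (limma adjusted p = 0.006), with mesophyll levels from 9.13 over 9.69 to 10.3 and whole leaf levels from 7.07 over 9.34 to 9.9. Its lowest whole leaf value came from the array that stood apart, and the difference without it was 0.44. PRK, PSB27, ATPC1 and LHB1B2 had differences of 0.17, 0.14, 0.13 and 0.51, and all 3 tested photorespiration genes lay between 0.04 and 0.37. Measured against its label, the isolated mesophyll held these markers at high levels, but none was called above the whole leaf. In the isolated vasculature the medians of the 7 photosynthesis genes were lower, from 5.75 (ATPC1) to 9.89 (RCA). Some were thus high there too, so that a high level alone does not set the tissues apart. In the mesophyll FMA, BLUS1 and CHX20 of the guard cells were at 2.17 or less, with AT1G22690 at up to 3.67. Of the vein list, SWEET11, GTR1 and CLE41 had the highest mesophyll medians, 8.71, 7.44 and 5.26. The other tested members of that list had mesophyll medians from 1.73 (OPS) to 3.15 (GTR2).

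The 63 tested plastid-encoded probe sets all had differences above 0, from 0.01 to 0.97 with a median of 0.13, and none was called, though quantile normalization turned the lowest of them, rpoC2, to -0.10, and with median centring rpl32 reached 1.13. Their highest, rpl32, had whole leaf levels from 6.86 over 10.38 to 10.9 and mesophyll levels from 10.64 over 10.89 to 11.3. The whole leaf minimum came from the same outlying array, and the difference was 0.63 without it. The chlorophyll synthesis list had no call in 4 members (0.08 to 0.32), nor did the flavonoid list in 3, with DFR at 0.13 and UGT78D2 at 0.19. Of 8 clock genes AT5G52660 alone passed the call, with 1.03 ± 0.10, and its call was lost (0.96) without the outlying whole leaf array. A single call among 8 is to be read beside the 11.2% of all probe sets called in either direction. The clock regulators TIC, LIP1 and XCT had differences of -0.33, -0.24 and -0.07. In the flowering list SMZ and SNZ had -0.74 and 0.13.

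The tissue difference was not the same at all times of day. At the single times the rises and falls numbered 1401 (6.42%) and 1411 (6.46%) at ZT0, 1216 (5.57%) and 1679 (7.69%) at ZT4, and 1315 (6.02%) and 1274 (5.84%) at ZT8. They numbered 1204 (5.52%) and 1175 (5.38%) at ZT12, 1303 (5.97%) and 1612 (7.39%) at ZT16, and 1297 (5.94%) and 1478 (6.77%) at ZT20. A moderated F test of tissue by time passed at an adjusted p below 0.05 in 1039 probe sets, 4.76% of those tested, and 3701 had an unadjusted p below 0.05. Of the 1039, 572 were also called on the mean difference. Their largest absolute difference fell most often at ZT0 and ZT4 (213 each) and least often at ZT12 (100). The count rests in part on the ZT0 whole leaf arrays: without the outlying array it was 1335, and without its day 9 counterpart, which leaves ZT0 to the outlying array, it was 2288. Among the members of the lists, 14 of 92 passed.

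GI (GIGANTEA), a clock gene that links light to flowering, differed between the tissues at a single time. At ZT8 its mesophyll levels were 9.27 and 9.26 and its whole leaf levels 9.38 and 8.8, day 9 before day 10. At ZT12 they were 2.37 and 2.49 in the mesophyll and 5.67 and 5.87 in the whole leaf, a difference of -3.34, while the other times gave differences from -0.21 to 0.73 (limma adjusted p of tissue by time 2.2e-05). The vasculature stood between them at ZT12, at 4.11 and 4.71. In short days, where ZT12 falls in the dark, the mesophyll had 2.19 and 2.52 and the whole leaf 2.2 and 2.13 at that time.

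Other regulators had their own times. COR27, a cold and light responsive partner of the clock, was higher in the mesophyll at ZT8, with 8.1 and 7.45 against 5.68 and 4.25, and had differences from -1.29 to 0.03 at the other times (limma adjusted p 0.0027). PIF7 was lowest against the whole leaf at ZT8 (-2.52) and ZT4 (-2.14) and near equal at ZT0 (0.19) and ZT20 (-0.32; limma adjusted p 0.0051). PORB, the light-dependent protochlorophyllide reductase, was lower in the mesophyll at ZT0, with 4.58 and 5.23 against 6.69 and 6.31, and had a difference of 0.99 at ZT4 (limma adjusted p 0.00082). PUB23 and WRKY6 had their smallest differences at ZT8. PUB23 rose by 7.34 at ZT20 and 6.65 at ZT0 but by 3.63 at ZT8, and WRKY6 had differences of 4.32 at ZT0 and 0.17 at ZT8 (limma adjusted p 0.0062 and 0.00032). With a replicate block the adjusted p of PUB23 was 0.0542.

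The genes with the widest range of the difference over the day were led by THI2.2, a thionin, an antimicrobial peptide. It stayed between 1.55 and 2.78 in all mesophyll arrays, while the whole leaf reached 10.06 and 9.8 at ZT4 and sank to 2.09 and 2.37 at ZT20. Its difference was -7.23 at ZT4 and -0.64 at ZT20, a range of 6.59. The ZT0 whole leaf arrays did not match, with 7.99 at day 9 and 2.87 in the outlying array, and the limma adjusted p of tissue by time was 0.031 with that array and 3.7e-08 without it. In 17 of the alternative settings, most of which leave out 1 array, THI2.2 missed the threshold, with an adjusted p of up to 0.084. AT3G09450 was highest in the whole leaf at ZT0, with 7.22 and 6.22, and its mesophyll levels were 1.93 or less at all times.

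The cysteine-rich peptide gene LCR69, a relative of plant defensins, had a mean difference of only 0.08 but opposite differences at neighbouring times. At ZT0 the mesophyll had 4.36 and 4.02 and the whole leaf 6.79 and 7.22, and at ZT4 the mesophyll had 7.05 and 6.56 and the whole leaf 4.66 and 4.62. Its differences were thus -2.81 and 2.17 (limma adjusted p 2.6e-06). In 2 genes without a symbol the mesophyll levels spread widely over the day while the whole leaf stayed near the bottom of the range. AT1G36622 had mesophyll levels of 6.96 and 7.71 at ZT0 and 2.21 and 2.01 at ZT8, against 2.38 or less in every whole leaf array. AT4G11580 peaked in the mesophyll at ZT8, with 6.42 and 6.86, against 1.8 or less in the whole leaf. Of the 8 genes with the widest range, AT1G73480, AT1G18320, AT5G16980 and AT3G09450 had ranges of 4.93, 4.83, 4.8 and 4.93.

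**Figure D3:**
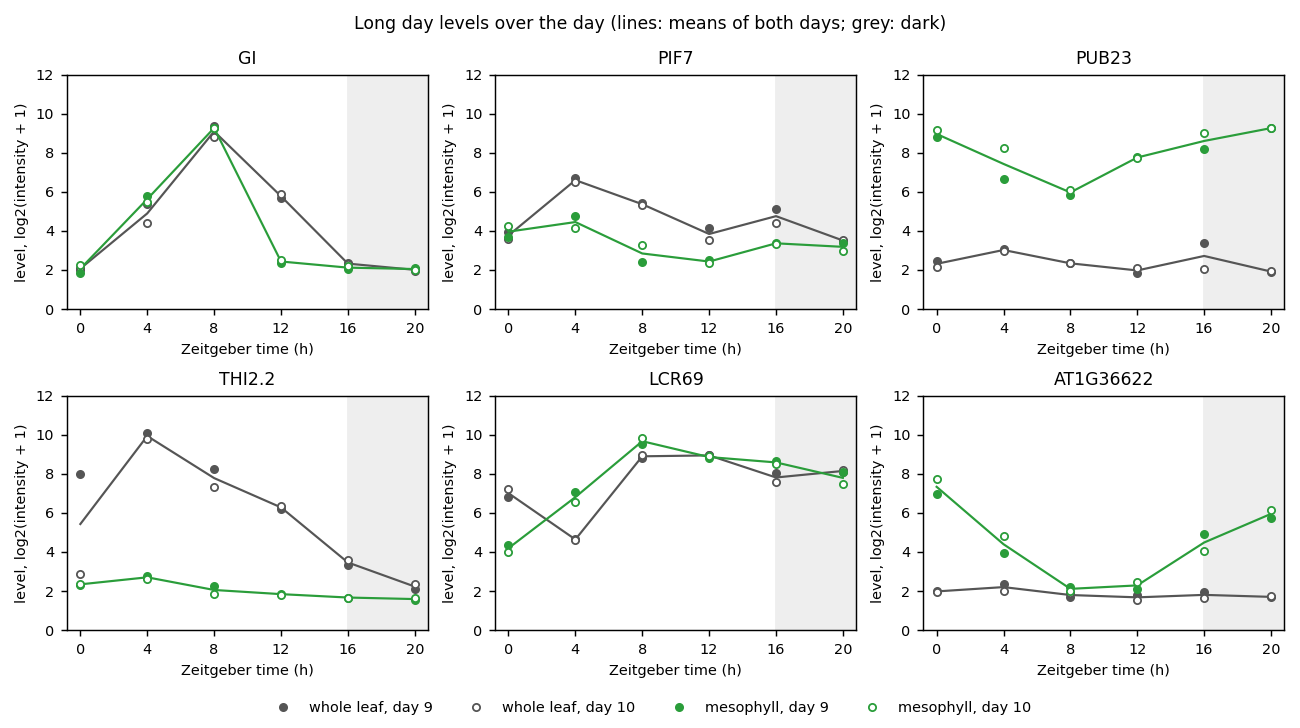
Levels, as log2(intensity + 1), of 6 genes against Zeitgeber time in h for long day whole leaf (grey) and mesophyll (green), with 1 point per array (filled, day 9; open, day 10), lines through the means and the dark period shaded. GI separates at ZT12, LCR69 at ZT0 and ZT4, and the whole leaf of THI2.2 holds 7.99 and 2.87 at ZT0.

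The same tissues were compared in short days in order to see where the long day difference departs from it. In short days 1362 probe sets rose (6.24%) and 1296 fell (5.94%). The lists shared 1122 rises, which is 89% of the long day and 82.4% of the short day rises, and 844 falls, 70.8% and 65.1%. A test of the difference itself called 387 probe sets, 1.77% of those tested, with 110 more positive in long days (0.504%) and 277 more negative (1.27%). The difference was larger in short days in 235 of them and in long days in 152.

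Of the 7 tested wound regulators, 3 passed this test, the PUB ligases, and their differences were smaller in long days. STZ, ORA47, AR781 and ABR1 did not pass it. Over all probe sets 1.77% passed, and 277 of those 387 were more negative in long days. PUB22 spread from 3.68 over a median of 6.24 to 7.54 in short day mesophyll and from 1.95 over 2.63 to 6.03 in long day mesophyll, while no whole leaf array of either day length was above 2.02. Its rise was 1.5 in long days and 4.26 in short days, a change of -2.77 ± 0.49 (limma adjusted p = 0.00025). PUB23 changed by -1.62, PUB24 by -1.59, WRKY6 by -1.91 and OPCL1 by -1.02. XTH18 and AT1G59865 changed by -1.98 and -2.63, again with larger rises in short days. RPN12b ran the other way, with a rise of 5.0 in long days against 3.8 in short days.

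Falls changed in either direction. AT1G66100 had the most negative change, -3.47 ± 0.46 (limma adjusted p = 5.8e-06), and its change lay in the whole leaf: 2.78 over a median of 6.89 to 10.62 in long days and 2.21 over 3.15 to 4.68 in short days, with mesophyll levels of 2.37 or less in both. For AT1G67870 the fall was 6.01 under long and 3.16 under short days, for AT1G67865 6.30 and 3.86, and for AT1G64370 5.3 and 2.77. GTR2 fell by 3.78 and 2.3, a change of -1.48. In the other direction, the fall of AT5G48900 was 1.55 under long and 3.7 under short days, with whole leaf medians of 3.46 and 5.53 and mesophyll levels of 2.57 or less, and that of AT4G28780 was 2.05 and 4.29. The expansin genes EXPA16 and EXPA8 and ZW9 also fell less in long days, by 1.09, 2.66 and 3.44 against 2.56, 3.84 and 5.53.

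For 4 named genes the signs were opposite. AT3G04210 was lower in long day mesophyll (-1.24) and higher in short day mesophyll (1.46). AT5G48490, AT5G21940 and AT1G60590 were higher in long days, by 1.45, 1.39 and 1.08, and had short day differences of -0.67, -0.81 and -1.14. All 4 overlapped between the tissues in long days. The short day differences of AT5G48490 and AT5G21940 were under the minimum for a call. Over all probe sets, 1 called rise and 1 called fall had the opposite call in short days. Short day mesophyll arrays of the same time correlated less well between the days (0.975 to 0.983) than the long day ones, and on day 9 alone the test called 224 probe sets.

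**Figure D4:**
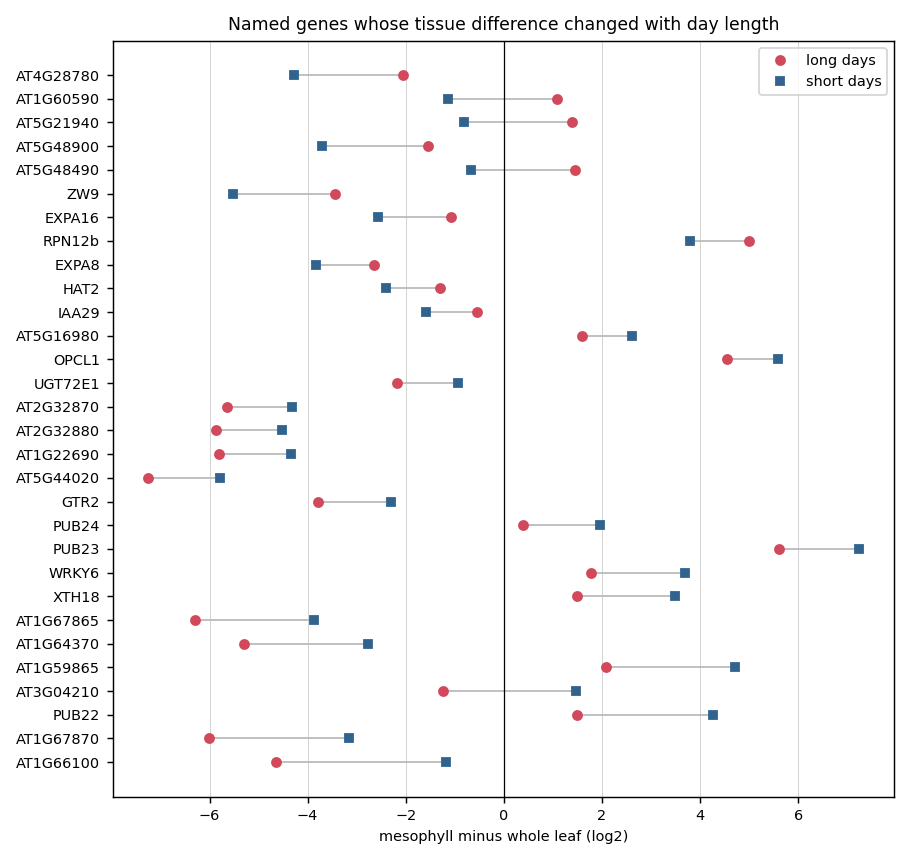
Mesophyll minus whole leaf difference (log2) in long days (circles) and short days (squares) of the 30 named genes whose tissue difference passed the day length test, joined by lines. PUB22 moves from 4.26 in short days to 1.5 in long days, and AT1G66100 from -1.18 to -4.65.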

How the data were processed

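RNA of long day and short day whole leaf, mesophyll and vasculature was hybridised to Affymetrix Arabidopsis Gene 1.0 ST arrays, 1 array per sample. The deposited table holds intensity values on a linear scale, from 0.835 to 18024, made by the authors with GCRMA, per the submitters' processing notes. No other processing step is given in the sources used here. GCRMA brings weak signals close to a common floor, so that folds against levels near it are imprecise, and the number of arrays limits the precision.

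Here log2(intensity + 1) was taken of the deposited values, and probe sets above an intensity of 2.77 (the 40th percentile) in at least 6 of all 72 arrays were kept. Tissue and time (6 times, 2 arrays each per tissue) were fitted with limma 3.58.1 (lmFit and eBayes, R 4.3.3), with Benjamini-Hochberg adjustment over all 21827 probe sets. Day length was tested in a fit of 48 arrays as an interaction, with the same call. Scripts were tested on simulated data. Python 3.11.15 and pandas 2.3.3 made the summaries.

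Gene names come from the platform annotation, updated through RefSeq TAIR10.1: a single gene stood beside 16722 probe sets (16574 of them in RefSeq), several genes beside 759 and no gene beside 11102. Only probe sets with 1 gene were named. The rule named the 12 highest and 12 lowest called genes with the same sign at all 6 times, the 8 past the tissue by time test with the widest range, the 5 most changed in each direction by day length, and members of 26 gene lists (424 loci, of which 91 genes could be tested). Added after their values were seen were the next 12 genes in each direction that carry a symbol, and the called members of gene families. The members and lists were chosen with earlier results of these data known. Alternatives covered the pseudocount, filter, scaling, minimum difference, times, days and left-out arrays.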

Additional observations from a re-analysis of the deposited data

Results flagged for a closer look

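For 30 named genes the mesophyll minus whole leaf difference differed between long and short days by an interaction test in limma (adjusted p below 0.05 and a change of at least 1). The change is given as long minus short days, in log2. Among genes higher in the mesophyll it was -1.62 for PUB23, -2.77 for PUB22, -1.59 for PUB24, -1.91 for WRKY6, -1.02 for OPCL1, -1.98 for XTH18, -2.63 for AT1G59865 and -1.01 for AT5G16980, and 1.198 for RPN12b. PUB24 was not called in long days. It was 2.12 for AT5G48490, 2.202 for AT5G21940, 2.22 for AT1G60590 and -2.70 for AT3G04210, whose differences have opposite signs in the day lengths.

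Among genes lower in the mesophyll the change was -1.47 for AT5G44020, -2.44 for AT1G67865, -2.86 for AT1G67870, -1.35 for AT2G32880, -1.33 for AT2G32870, -1.46 for AT1G22690, -2.53 for AT1G64370, -3.47 for AT1G66100, -1.48 for GTR2 and -1.24 for UGT72E1. It was 2.09 for ZW9, 1.18 for EXPA8, 1.48 for EXPA16, 1.11 for HAT2, 1.05 for IAA29, 2.15 for AT5G48900 and 2.24 for AT4G28780. IAA29 was not called in long days.

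For 8 genes the difference varied with time of day, with a limma adjusted p of tissue by time below 0.05 and the widest ranges between the highest and the lowest of the 6 times. The range was 6.59 for THI2.2, 5.04 for AT1G36622, 4.98 for LCR69, 4.93 for AT1G73480, 4.93 for AT3G09450, 4.83 for AT1G18320, 4.83 for AT4G11580 and 4.80 for AT5G16980. No cause was tested for any of these.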

How the results depend on the processing

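No called result reversed under any alternative that was run. Of 6274 values of single genes, 6194 stayed on their side of the call, 47 (16 of 170 genes) lost it, 19 (GRX480 and rpl32) gained it and 14 uncalled ones moved. Of the values of single genes in the day length test, 60 of 1080 lost the call (21 of 30 genes), and in the test of tissue by time 119 of 1292 did (14 of 38 genes). With no minimum difference 13190 probe sets passed, 4435 higher and 8755 lower, and with a minimum of 2 the counts were 932, 658 and 274, which follows from the rule itself. Of the list members, 19 were higher and 14 lower, and the lower count became 34 and 6 under these rules. Without single arrays the calls ranged from 2427 to 2490 (higher 1249 to 1273, lower 1165 to 1241), the list members from 18 to 20 higher with 14 lower, and the day length calls from 361 to 429. The tissue by time count ranged from 805 (without LD whole leaf replicate 2) to 2288 (without LD whole leaf replicate 1). Day 9 alone gave 224 day length calls, and the cause was not tested. Replicate numbers mark the time and day. The differences between the days correlated between the tissues at -0.118 to 0.052 over the 6 times. With 1 such difference per tissue and time, this cannot tell whether the tissues were collected together. The main fits did not pair the samples. With the replicate block the tissue by time count was 609, and no other count moved by over 1.5 times. A pseudocount of 4 took CHX20 (-0.75), CLE26 (-0.92), SWEET1 (-0.77), SWEET4 (-0.82) and AT5G52660 (0.87) under the call. The planned description of promoter motifs was not run. Levels near the floor limit the size of a fold.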
